A study of Mus musculus with 16 samples.

Results

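The 46 genes described here encode the proteins that license, fire and copy DNA replication origins, together with the enzymes that make deoxynucleotides for them and the E-type cyclins that start S phase. They were taken by symbol from the RNA count table of mouse CD8+ T cells. All 46 symbols were found among its 13275 genes, and all 46 passed the filter on low counts that left 12022 genes for testing. The cells came from Pmel-LC3-GFP-RFP mice, whose T cells carry 1 receptor for a melanocyte antigen, and were sorted by the LC3-GFP signal into a positive and a negative population. LC3 is the protein that decorates autophagosomes, and its GFP fusion reports on them.

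RNA was sequenced from 2 libraries of LC3-GFP positive and 2 of LC3-GFP negative cells. Both populations had been stimulated for 3 days through CD3 and CD28 (each antibody at 2 µg/ml) with IL2 at 100 IU/ml, and both were sorted after 24 h of carbon monoxide (CO). All groups therefore share the CO treatment, and untreated cells were not analysed here. Open chromatin was mapped by ATAC-seq, a method based on cutting by Tn5 transposase. It covered 2 positive and 2 negative libraries of cells sorted in the same way (in vitro), and Vβ13+CD8+ cells recovered from B16-F10 tumours of C57BL/6 mice that had received positive or negative cells (in vivo, 4 mice per group). Transfer took place 12 days after tumour inoculation and recovery 15 days after transfer. No age is labelled, and it is not stated whether replicates of the sorted cells were separate animals or cultures. P-values for RNA thus cover the spread among these 4 libraries alone, and that spread may be technical.

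Each round of replication is prepared in G1, when the origin recognition complex, CDC6 and CDT1 load the ring-shaped MCM helicase onto DNA. At the G1/S boundary, cyclin E with CDK2 and the kinase CDC7 convert the loaded helicase into an active one by recruiting CDC45 and the GINS complex. Primase and 3 replicative polymerases then copy the strands behind it, and the PCNA clamp tethers polymerases to DNA. Many of these genes are known targets of the E2F transcription factors, and T cells switch them on when antigen and IL2 drive them from rest into rapid division.

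The promoters of these genes carry the E2F signature more often than those of other expressed genes. RefSeq promoter windows on GRCm38.p6, spanning 250 bases before to 50 bases after an annotated start, were available for 38 of the 46 genes (46 windows). They were searched on both strands for the E2F words TTTCCCGC, TTTCGCGC, TTTGCCGC and TTTGGCGC. At least 1 word was found in 16 of the 38 genes (42.1%), against 4.87% of the 9424 tested genes with a window. Counted by window, the share was 34.8% for the replication genes, 4.05% for the tested genes and 2.26% for all 32851 RefSeq windows. The commonest word was TTTCCCGC, in 8 of the 46 windows, and TTTGCCGC was in none. The CCAAT box was present in 63.2% of the 38 genes and in 43.3% of the tested genes, and the GC box GGGCGG in 76.3% and 69.2%. The 8 genes with no window in the table were Mcm4, Gins1, Gins2, Gins4, Prim2, Pole, Rfc2 and Ccne2. The stretches printed here come from genes whose values are described below, and capitals mark the E2F words on either strand.
Mcm3, chr1:20820266-20820294, minus strand: gGCGGGAAAacttgggaagtTTTGGCGCc
Mcm5, chr8:75109331-75109392, plus strand: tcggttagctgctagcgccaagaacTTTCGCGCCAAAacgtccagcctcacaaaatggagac
Mcm6, chr1:128359720-128359840, minus strand: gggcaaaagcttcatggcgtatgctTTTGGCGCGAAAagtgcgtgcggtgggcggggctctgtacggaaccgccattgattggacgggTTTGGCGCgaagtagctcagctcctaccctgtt
Mcm7, chr5:138172016-138172073, minus strand: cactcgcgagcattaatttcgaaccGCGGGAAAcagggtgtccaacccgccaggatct
Mcm8, chr2:132816169-132816190, plus strand: gcgtcatagacGCGCCAAAaaa
Cdc6, chr11:98907988-98908045, plus strand: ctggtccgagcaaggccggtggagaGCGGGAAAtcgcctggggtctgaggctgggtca
Orc1, chr4:108579402-108579453, plus strand: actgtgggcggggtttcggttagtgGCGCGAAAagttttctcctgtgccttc
Pola1, chrX:93632261-93632318, minus strand: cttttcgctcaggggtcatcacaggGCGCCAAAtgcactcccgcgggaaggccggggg
Pole2, chr12:69228162-69228191, minus strand: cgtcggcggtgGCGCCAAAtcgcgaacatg
Pold1, chr7:44548766-44548787, minus strand: cgtatcttgtgGCGGGAAAagc

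In Mcm5 and Mcm6 the run of capitals holds a word on each strand that overlap each other. Such an arrangement occurred in 4 of the 32851 windows, those of Mcm5, Mcm6, Mycn and Msh3. A match to these letters describes the window and does not show binding. Across the 46 genes, the median RNA log2 fold change was 0.16 for the 16 genes with a word (8 of them called higher), 0.20 for the 22 without (15 called higher) and 0.18 for the 8 with no window (5 called higher).

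In the RNA, nearly all of the 46 listed genes stood slightly higher in LC3-GFP positive cells. By edgeR's quasi-likelihood test across all genes with a Benjamini-Hochberg adjusted p under 0.05, 28 of the 46 genes rose, 0 fell and 18 did not pass. Over all tested genes, 11.3% were called higher, 13.6% lower and 25% in either direction. At an unadjusted p under 0.05, 36 of the 46 genes were higher and 0 lower. The share of all tested genes at that unadjusted threshold was not counted, here or for the lists below. DESeq2 called 16 of the 46 higher and 0 lower, and 5.76% of all the genes it tested higher. The differences were small: the median log2 fold change of positive over negative cells was 0.18, or 13.6% more transcript, and the extremes were -0.08 (Pold1) and 0.53 (Ccne2), while the median of all tested genes was 0.00227. In 43 of the 46 genes both positive libraries lay above both negative libraries, a pattern seen in 30.6% of tested genes. Only Pold1 had both positive libraries below both negative ones, as did 31% of tested genes, and Cdt1 and Gins4 overlapped. Together the 46 genes took 0.796% and 0.790% of all counts in positive libraries, against 0.672% and 0.664% in negative libraries. These are bulk libraries, in which more cells in S phase and more transcript per cell cannot be told apart.

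The number of calls depended on the libraries in the fit. Without positive replicate 1 or positive replicate 2, fewer of the 46 genes were called higher, while their median log2 fold change was 0.19 and 0.18. Such a fit has fewer residual degrees of freedom and assumes that the lone positive library varies like the negative ones, and calls over all genes were also fewer. Fits without negative replicate 1 or 2 have as few residual degrees of freedom, but calls over all genes did not fall there. The median log2 fold change of the 46 genes was 0.20 and 0.19 in those fits. What sets the fits apart was not tested. Mcm4, Mcm8, Mcm10, Cdc6, Pola1, Pcna, Tyms, Rrm1, Rrm2 and Ccne2 were called higher in each of the 10 alternative settings. The share of all tested genes called in every setting was not counted.

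**Figure D1:**
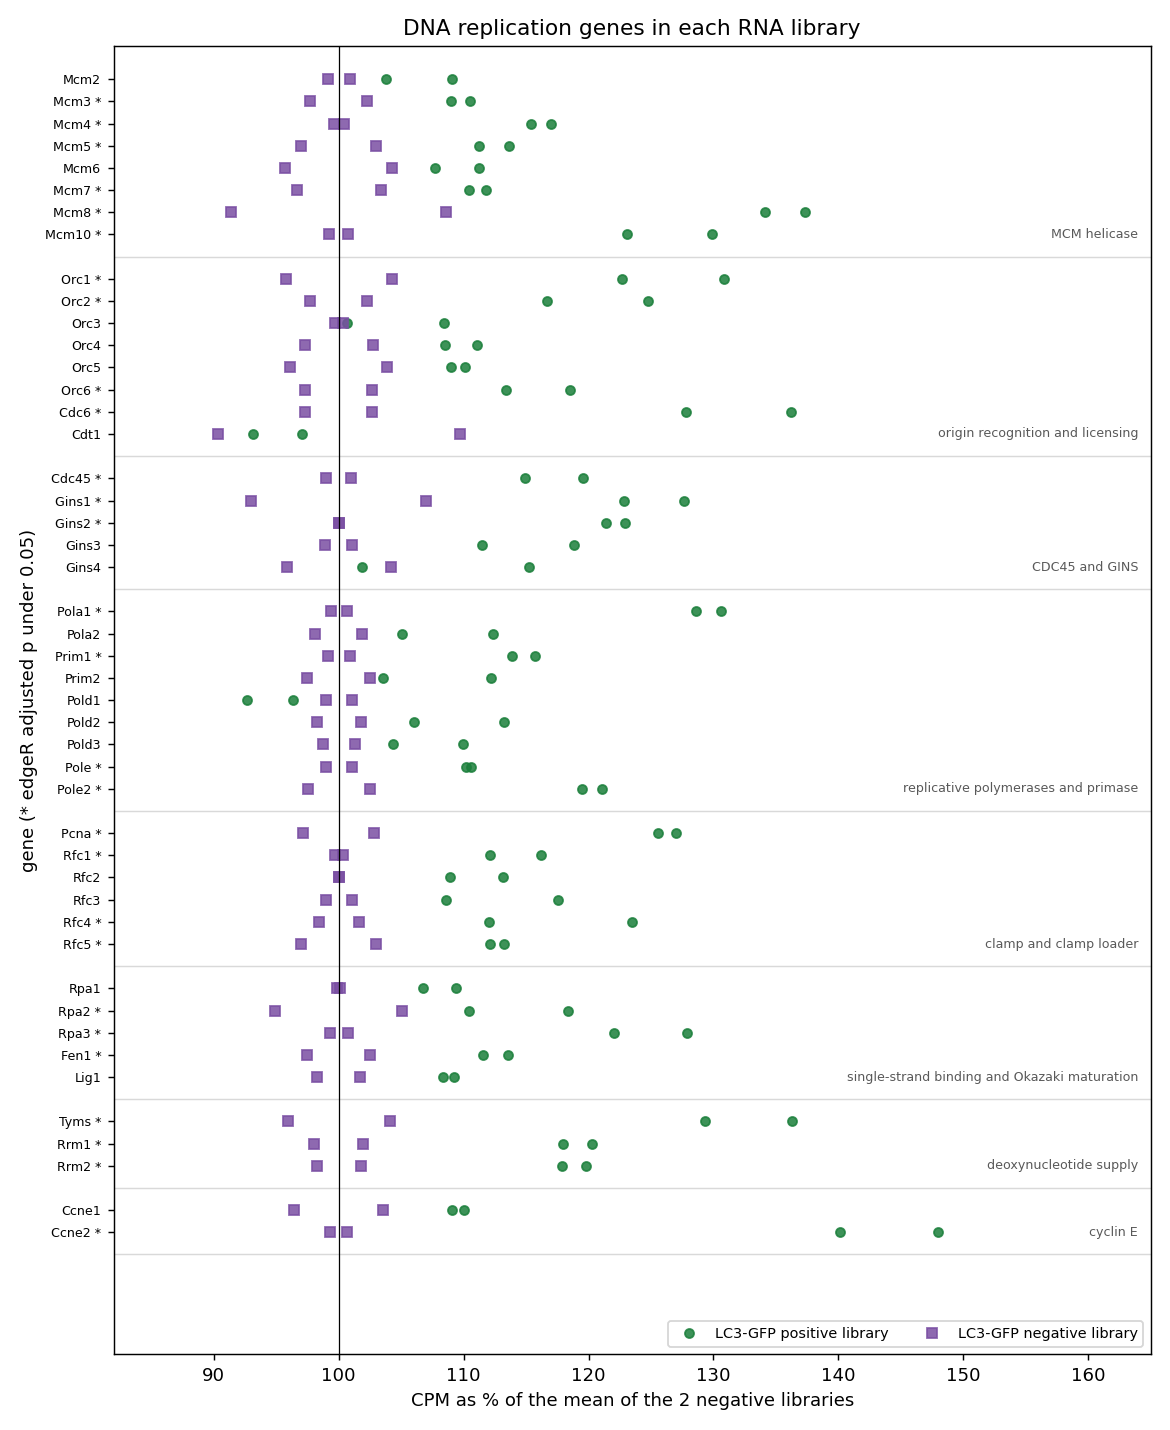
Level of each of the 46 genes in the 4 RNA libraries, as CPM in percent of the mean of the 2 negative libraries (x axis), with genes grouped by role; circles are positive and squares negative libraries, and an asterisk marks an edgeR adjusted p under 0.05. Both positive libraries lie right of both negative ones for 43 genes, and Pold1 shows the opposite order.

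Of the helicase genes, 6 of 8 rose (median log2 fold change 0.16). The 6 subunits of the MCM ring moved little: 4 of them rose, and their log2 fold changes ran only from 0.09 (Mcm2) to 0.22 (Mcm4). Mcm4 stood at 382 and 387 CPM (counts scaled by TMM-adjusted library size) in positive libraries, against 329 and 332 CPM in negative libraries (log2 fold change 0.22, SE 0.04, edgeR adjusted p = 0.00121). The groups did not overlap. Mcm3, Mcm5 and Mcm7 rose by log2 0.13, 0.17 and 0.15, all 3 only with both positive libraries in the fit. Mcm6 had a log2 fold change of 0.13 (adjusted p = 0.0536) and Mcm2 of 0.09 (adjusted p = 0.160), and neither passed.

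The other 2 MCM genes encode no part of that ring and differed more. MCM8 forms a separate helicase with MCM9 that works in homologous recombination. Mcm8 stood at 33.0 and 32.2 CPM in positive libraries, against 26.1 and 22.0 CPM in negative libraries (log2 fold change 0.44, SE 0.10, edgeR adjusted p = 0.00261). MCM10 is a firing factor that helps the assembled helicase to open the DNA. Mcm10 stood at 109 and 103 CPM in positive libraries, against 83.0 and 84.3 CPM in negative libraries (log2 fold change 0.34, SE 0.06, edgeR adjusted p = 0.000245). For both genes the positive libraries lay above the negative ones.

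Of the origin recognition and licensing genes, 4 of 8 rose: Cdc6, Orc1, Orc2 and Orc6. CDC6 is the ATPase that joins the origin complex to load the helicase. Cdc6 stood at 107 and 114 CPM in positive libraries, against 81.4 and 85.9 CPM in negative libraries (log2 fold change 0.40, SE 0.06, edgeR adjusted p = 6.77e-05). ORC1 is the largest subunit of the origin complex. Orc1 stood at 46.1 and 43.2 CPM in positive libraries, against 33.7 and 36.7 CPM in negative libraries (log2 fold change 0.34, SE 0.08, edgeR adjusted p = 0.00407), and this call was lost without positive replicate 1 (adjusted p = 0.0600). Orc2 and Orc6 rose by log2 0.27 and 0.21, and these calls were lost without positive replicate 1 too. The Orc6 call was also lost with DESeq2, without positive replicate 2 and without negative replicate 2. Orc3, Orc4 and Orc5 had log2 fold changes of 0.06, 0.13 and 0.13 and were called in 0 of the 10 alternative settings.

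CDT1 is the partner of CDC6 in loading the helicase. Cdt1 stood at 129 and 124 CPM in positive libraries, against 146 and 120.4 CPM in negative libraries (log2 fold change -0.07, SE 0.07, edgeR adjusted p = 0.484). The groups overlapped, with the negative libraries on either side of the positive ones, and the sign depended on them: without negative replicate 1 the log2 fold change was 0.08 (adjusted p = 0.379), and without negative replicate 2 it was -0.20 (adjusted p = 0.00146).

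Of the genes for CDC45 and the 4 GINS subunits, which clamp onto the MCM ring to make the active helicase, 3 of 5 rose. Gins1 stood at 24.3 and 25.2 CPM in positive libraries, against 21.2 and 18.4 CPM in negative libraries (log2 fold change 0.32, SE 0.10, edgeR adjusted p = 0.0297). Gins2 stood at 43.0 and 42.4 CPM in positive libraries, against 34.95 and 34.96 CPM in negative libraries (log2 fold change 0.29, SE 0.08, edgeR adjusted p = 0.00988). In both genes the groups were apart. Cdc45 rose by log2 0.23. Gins3 (log2 0.20, adjusted p = 0.0984) and Gins4 (log2 0.11, adjusted p = 0.343) did not pass. All 3 calls in this group were lost without positive replicate 1 and with DESeq2. The Gins1 call was also lost without positive replicate 2 and without negative replicate 2.

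Of the primase and polymerase genes, 4 of 9 rose, the lowest share of any role (44.4%). The largest difference was in Pola1, the catalytic subunit of the polymerase that extends each RNA primer. Pola1 stood at 144 and 142 CPM in positive libraries, against 111 and 109 CPM in negative libraries (log2 fold change 0.37, SE 0.05, edgeR adjusted p = 3.36e-05). Its accessory subunit gene Pola2 had a log2 fold change of 0.12 (adjusted p = 0.146). The primase subunit genes were Prim1, which rose by log2 0.20, and Prim2, at log2 0.11 (adjusted p = 0.260). The Prim1 call was lost with DESeq2 and without either positive library, as was that of Pole. The Prim1 call was also lost without negative replicate 1.

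Both genes of the leading strand polymerase epsilon on the list rose: Pole by log2 0.14, and Pole2, its second subunit. Pole2 stood at 32.0 and 32.5 CPM in positive libraries, against 26.1 and 27.5 CPM in negative libraries (log2 fold change 0.27, SE 0.09, edgeR adjusted p = 0.0304), a call lost with DESeq2 and without positive replicate 1, positive replicate 2 or negative replicate 1 (adjusted p at most 0.189 over the alternatives). Of the 3 genes among the 46 for polymerase delta, which copies the lagging strand, 0 passed (Pold4, for its smallest subunit, is described with the neighbouring lists). Its catalytic subunit gene Pold1 was the lowest of the 46: it stood at 185 and 178 CPM in positive libraries, against 194 and 189.8 CPM in negative libraries (log2 fold change -0.08, SE 0.05, edgeR adjusted p = 0.236). Pold2 and Pold3 had log2 fold changes of 0.13 (adjusted p = 0.116) and 0.10 (adjusted p = 0.206). The difference between the polymerases was not tested.

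Of the genes for the sliding clamp and its loader, 4 of 6 rose. PCNA is the ring that tethers polymerases to DNA, and Pcna stood at 501 and 496 CPM in positive libraries, against 384 and 406 CPM in negative libraries (log2 fold change 0.34, SE 0.04, edgeR adjusted p = 2.64e-05). The RFC complex opens that ring and loads it. Rfc4 stood at 43.4 and 47.8 CPM in positive libraries, against 38.1 and 39.4 CPM in negative libraries (log2 fold change 0.23, SE 0.08, edgeR adjusted p = 0.0358), a call lost with DESeq2, without positive replicate 2 and without negative replicate 1. Rfc1 and Rfc5 rose by log2 0.19 and 0.17, both only with positive replicate 2 in the fit, while Rfc2 and Rfc3 had log2 fold changes of 0.15 (adjusted p = 0.0551) and 0.18 (adjusted p = 0.103). The Rfc5 call was also lost with DESeq2, without positive replicate 1 and without negative replicate 1.

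RPA coats single-stranded DNA at the fork, and FEN1 and DNA ligase I finish the Okazaki fragments. Of these 5 genes 3 rose. Rpa3, the smallest subunit, stood at 24.4 and 23.3 CPM in positive libraries, against 19.2 and 18.9 CPM in negative libraries (log2 fold change 0.32, SE 0.10, edgeR adjusted p = 0.0254). Rpa2 stood at 84.2 and 90.2 CPM in positive libraries, against 72.4 and 80.1 CPM in negative libraries (log2 fold change 0.19, SE 0.06, edgeR adjusted p = 0.0360). The groups were apart in both, and in Rpa2 the nearest libraries of the 2 groups lay close together. Fen1 rose by log2 0.17. Rpa1 (log2 0.11, adjusted p = 0.0710) and Lig1 (log2 0.12, adjusted p = 0.0618) did not pass. The calls of Rpa2, Rpa3 and Fen1 were lost with DESeq2 and without positive replicate 2. Those of Rpa3 and Fen1 were also lost without positive replicate 1, and that of Rpa2 without negative replicate 1.

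All 3 genes of deoxynucleotide supply rose. Thymidylate synthase makes dTMP from dUMP. Tyms stood at 90.9 and 86.3 CPM in positive libraries, against 64.0 and 69.4 CPM in negative libraries (log2 fold change 0.41, SE 0.06, edgeR adjusted p = 0.000115). RRM1 and RRM2 are the large and small subunits of ribonucleotide reductase, which turns ribonucleotides into deoxyribonucleotides. Rrm1 stood at 505 and 515 CPM in positive libraries, against 436 and 419 CPM in negative libraries (log2 fold change 0.25, SE 0.04, edgeR adjusted p = 0.00035). Rrm2 stood at 604 and 615 CPM in positive libraries, against 504 and 522 CPM in negative libraries (log2 fold change 0.25, SE 0.04, edgeR adjusted p = 0.000372). The 2 reductase subunits differed by nearly the same factor, 1.19-fold each.

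Of the 2 cyclin E genes, whose products activate CDK2, 1 rose. Ccne2 had the largest log2 fold change of the 46 and stood at 56.1 and 53.1 CPM in positive libraries, against 38.1 and 37.6 CPM in negative libraries (log2 fold change 0.53, SE 0.07, edgeR adjusted p = 4.2e-05). Ccne1 stood at 84.0 and 84.8 CPM in positive libraries, against 74.3 and 79.8 CPM in negative libraries (log2 fold change 0.13, SE 0.06, edgeR adjusted p = 0.122). The positive libraries lay above the negative ones in both genes.

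**Figure D2:**
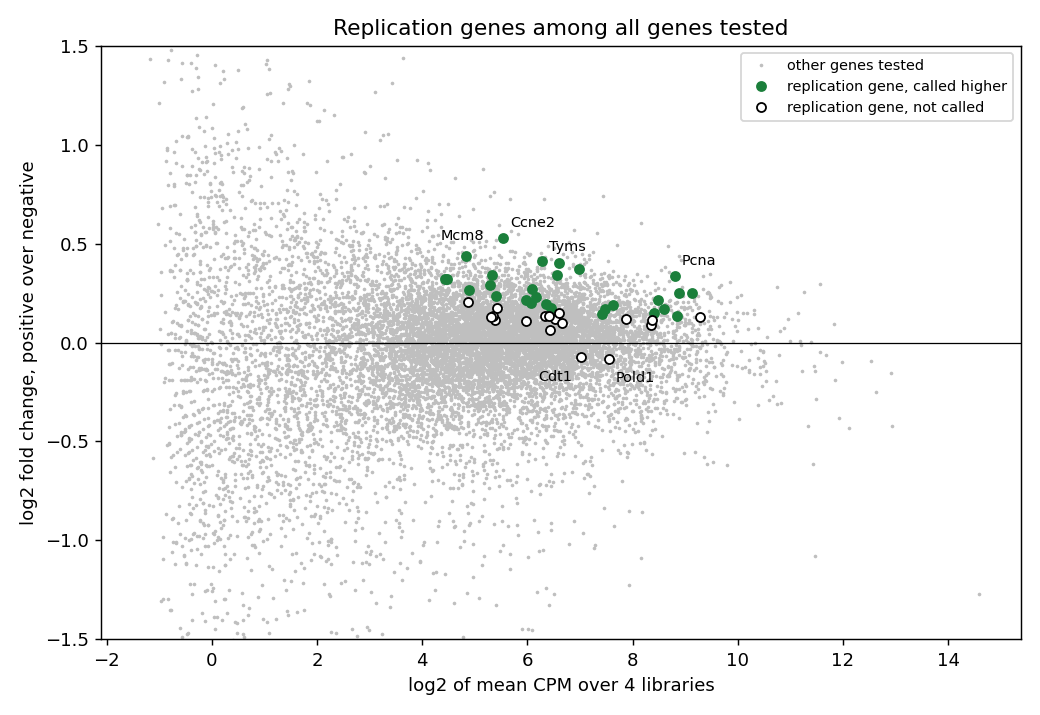
Log2 fold change of positive over negative cells (y axis) against the log2 of mean CPM over 4 libraries (x axis) for the 46 genes (large circles, filled where called higher) and the other genes tested (small dots, 138 of them beyond the y range). The 46 genes lie between -0.08 and 0.53, mostly above the zero line.

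The genes around the replication machinery were read from lists whose share of calls can be set beside the 60.9% of the 46 genes called higher and the 11.3% of all tested genes. Of 15 genes for replication-coupled chromatin assembly, 11 rose and 0 fell (73.3% higher, median log2 0.18), and 12 were higher and 0 lower at an unadjusted p under 0.05. HELLS is a chromatin remodeller needed for DNA methylation, and Hells stood at 172 and 171 CPM in positive libraries, against 136 and 134 CPM in negative libraries (log2 fold change 0.35, SE 0.05, edgeR adjusted p = 4.59e-05). Chaf1b (log2 0.25), a subunit of the histone chaperone CAF-1, and Asf1a (log2 0.24), which hands histones to it, rose too, but both calls were lost with DESeq2 and without positive replicate 1. The Chaf1b call was also lost without negative replicate 2, and the Asf1a call without positive replicate 2 or negative replicate 1.

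Purine and pyrimidine synthesis genes followed, with 14 of 21 higher and 2 lower (66.7% higher, median log2 0.18). Ppat, the enzyme that commits to purine synthesis, stood at 149 and 157 CPM in positive libraries, against 115 and 118 CPM in negative libraries (log2 fold change 0.39, SE 0.05, edgeR adjusted p = 2.53e-05). Pfas, a later step of the same pathway, rose by log2 0.30. Adssl1, the muscle-type adenylosuccinate synthase, fell by 0.90 on the log2 scale and stood at 8.36 and 7.35 CPM in positive libraries, against 15.5 and 13.8 CPM in negative libraries (edgeR adjusted p = 0.000185).

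Of 19 other deoxynucleotide and thymidylate genes, 9 rose and 2 fell (47.4% higher, median log2 0.15). Dctpp1, which clears dCTP and modified dCTP, had 37.9 and 41.8 CPM in positive libraries, against 29.0 and 30.7 CPM in negative libraries (log2 fold change 0.42, SE 0.08, edgeR adjusted p = 0.00147). Nme1, a nucleoside diphosphate kinase, rose by log2 0.34. The 2 that fell were Shmt2 and Mthfd2 (log2 -0.25 and -0.32), enzymes of mitochondrial folate metabolism.

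Fork protection and checkpoint genes showed 11 of 24 higher and 0 lower (45.8% higher, median log2 0.16), with 13 higher and 0 lower at an unadjusted p under 0.05. Chek1, the checkpoint kinase that restrains origin firing, stood at 50.4 and 50.4 CPM in positive libraries, against 42.7 and 38.1 CPM in negative libraries (log2 fold change 0.32, SE 0.08, edgeR adjusted p = 0.00523). Atad5, which unloads PCNA, and Hus1, a subunit of the checkpoint clamp, rose by log2 0.30 and 0.27, and the Hus1 call was lost with DESeq2 and without positive replicate 2. Other fork, polymerase and initiation factors gave 6 of 24 higher and 1 lower (25% higher, median log2 0.14). Top1, which relaxes supercoils ahead of the fork, and Wdhd1, which links polymerase alpha to the helicase, rose by log2 0.37 and 0.32. The one that fell was Pold4 of polymerase delta: it stood at 24.7 and 23.4 CPM in positive libraries, against 38.7 and 38.0 CPM in negative libraries (log2 fold change -0.67, SE 0.09, edgeR adjusted p = 1.6e-05).

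Mitotic genes showed 6 of 30 higher and 0 lower (20% higher, median log2 0.06), with 8 higher and 2 lower at an unadjusted p under 0.05. Ccnb1, the cyclin that drives entry into mitosis, rose by log2 0.27, Hmmr, a spindle protein, by 0.22, and Nuf2, a kinetochore protein, by 0.19. The Hmmr and Nuf2 calls were lost without positive replicate 2, and the Nuf2 call also with DESeq2 and without positive replicate 1. Regulators of E2F, RB and the G1/S step went both ways, with 6 of 27 higher and 6 lower (22.2% higher, median log2 0.06). Tfdp1 and Tfdp2, the DNA-binding partners of E2F proteins, rose by log2 0.30 and 0.29. Cdkn1b, which encodes the CDK2 inhibitor p27, stood at 74.0 and 80.1 CPM in positive libraries, against 114 and 113 CPM in negative libraries (log2 fold change -0.56, SE 0.06, edgeR adjusted p = 1.6e-06). None of the 8 E2F genes passed edgeR's test, and 0 had an unadjusted p under 0.05. Their log2 fold changes ran from -0.13 (E2f1) to 0.15 (E2f3).

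**Figure D3:**
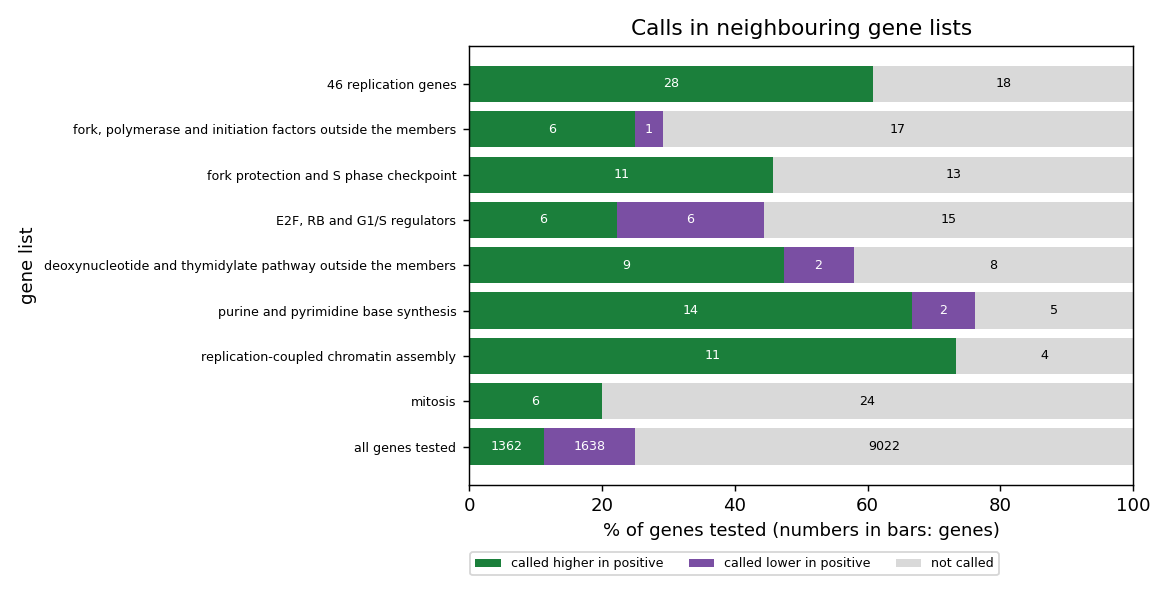
Share of tested genes called higher, called lower or not called in positive against negative cells (x axis, percent of genes tested, with the number of genes in each bar) for the 46 genes, 7 neighbouring lists and all genes tested. The share called higher is 73.3% for chromatin assembly, 60.9% for the 46 genes, 20% for mitosis and 11.3% for all genes.

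Some other differences between the libraries moved with these values. Total counts were 15605906 to 17557633 in positive and 14567545 to 15850672 in negative libraries, and these ranges overlapped. Rn45s, the precursor of ribosomal RNA, made up 1.43% and 1.51% of counts in positive libraries, against 3.20% and 3.58% in negative libraries, and leaving it out gave the same 28 calls. Scaling by library size alone gave 39 of the 46 genes and 18.6% of all tested genes higher. It shifted the median of all genes to 0.06 on the log2 scale. The share of all calls that were higher was 45.4% with TMM scaling and 65.1% with library size alone. Of the CD8 T cell markers 6 of 9 tested (12 listed) fell and 0 rose, with summed levels of 2668 and 2694 CPM in positive libraries, against 2959 and 2972 CPM in negative libraries. At an unadjusted p under 0.05, 7 fell and 0 rose. Cd3e, Cd3d and Cd8b1, which encode chains of the T cell receptor complex and of CD8, had log2 fold changes of -0.20 each, and each call was lost without 1 or more of the libraries. The T cell receptor constant region genes Trac, Trbc1 and Trbc2 were on this list but were not used here. Of the 12 listed genes, 9 were in the count table.

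Markers of other cells were mostly scarce. Of the B and plasma cell markers 5 of 6 tested (8 listed) rose and 0 fell (6 and 0 at an unadjusted p under 0.05), with summed levels of 15.4 and 14.2 CPM in positive libraries, against 5.11 and 6.15 CPM in negative libraries. Cd22 had 31 and 29 counts in positive libraries, against 3 and 0 in negative libraries. Ms4a1 had 25 and 12 counts in positive libraries, against 0 and 1 in negative libraries. These are B cell surface proteins. Of the myeloid and dendritic markers 3 of 7 tested (11 listed) rose and 2 fell, with sums of 71.2 and 75.9 CPM in positive libraries, against 76.8 and 81.3 CPM in negative libraries. Cd74, a chaperone of MHC class II, had 16.3 and 14.6 CPM in positive libraries, against 0.841 and 1.33 CPM in negative libraries. H2-Aa, a class II chain, had 46 and 57 counts in positive libraries, against 4 and 2 in negative libraries, and Mpeg1, a macrophage gene, had 30 and 17 counts in positive libraries, against 0 and 1 in negative libraries. The 2 that fell were H2-Ab1 and Cd68, named beyond the rule for list genes. H2-Ab1, the partner chain of H2-Aa, had 46.7 and 52.2 CPM in positive libraries, against 67.0 and 71.3 CPM in negative libraries. Cd68, a lysosomal protein of macrophages, had 1.78 and 2.26 CPM in positive libraries, against 6.02 and 5.73 CPM in negative libraries. Of the CD4 T cell markers, Cd4 rose (4.40 and 3.39 CPM in positive libraries, against 0.971 and 0.699 CPM in negative libraries), and Zbtb7b and Gata3 fell (log2 -0.48 and -0.38), with 3 of 6 listed genes tested and sums of 88.4 and 84.1 CPM in positive libraries, against 119 and 108 CPM in negative libraries. The 46 replication genes summed to 7783 and 7737 CPM in positive libraries, against 6897 and 6765 CPM in negative libraries. The part of these other cells in the replication result was not tested.

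Counting adds doubt for some genes. Of the 46 genes, 8 overlap another gene of the table, among them Ccne2 (with Ints8), Gins2 (with Gse1) and Rfc4 (with Eif4a2), and whether reads were counted by strand is not given. Another doubt concerns 7 genes, including Mcm5, Mcm6, Mcm7 and Ccne2, with counts over 0.1 from a whole number, which whole reads alone do not give.

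The start sites of all but 1 of these genes were open in every ATAC library of both populations. In the window from 250 bases before to 50 bases after the table's start, 45 of the 46 genes had a peak in all 4 in vitro libraries and in all 8 in vivo libraries (97.8% of the genes). Among tested genes the shares were 88.7% in vitro and 84.5% in vivo. No gene of the 46 had a start-site peak in 1 population alone. Each library has its own peak list. In vitro, positive libraries had 63761 and 53869 peaks, against 56476 and 49634 peaks in negative libraries. In vivo, positive libraries had 27406 to 37477 peaks, against 33704 to 55171 peaks in negative libraries.

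The exception was Lig1. It had no peak at its listed start in any library, but a peak in all 12 had its summit 1253 to 1808 bp downstream of that start, where RefSeq lists further Lig1 starts at 1513 and 1952 bp. With a window of 1 kb on both sides of the start, all 46 genes had a peak in every library.

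The height of these peaks, taken as the rank of the authors' fold enrichment among all peaks of the same library, was above that of start-site peaks in general. The median percentile of the 45 genes was 80.5 to 88.5 across the 12 libraries, against 69.9 to 76.8 for the start-site peaks of all genes. The genes differed among themselves. Mcm2 lay between the 15.3 and 41.8 percentiles in the 12 libraries, Rrm2 between 27.1 and 73.8, and Pold1 between 34.6 and 60.9. Mcm8 lay between 92.8 and 98.9, Orc2 between 89.1 and 98.6, and Prim1 between 74.4 and 99.9. Ccne2, with the largest RNA difference, had ranks of 53.5 to 71.3, and Pcna of 31.9 to 76.0. These ranges pool both populations. In vitro, some genes ranked higher in both positive libraries (Ccne2 66.5 and 70.8, against 58.2 and 61.1). Some ranked lower (Pcna 61.7 and 64.8, against 65.1 and 76.0), and most overlapped. Mcm4 and Rrm1 ranked lower in positive libraries in both experiments, and no gene ranked higher in both. The share of all genes with such an order was not counted. Over all start-site peaks, the median percentile in vivo was 69.9 to 72.4 in positive libraries, against 71.3 to 76.8 in negative libraries. In vitro it was 73.4 and 74.7 in positive libraries, against 74.0 and 74.3 in negative libraries. The difference between the populations was not tested.

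**Figure D4:**
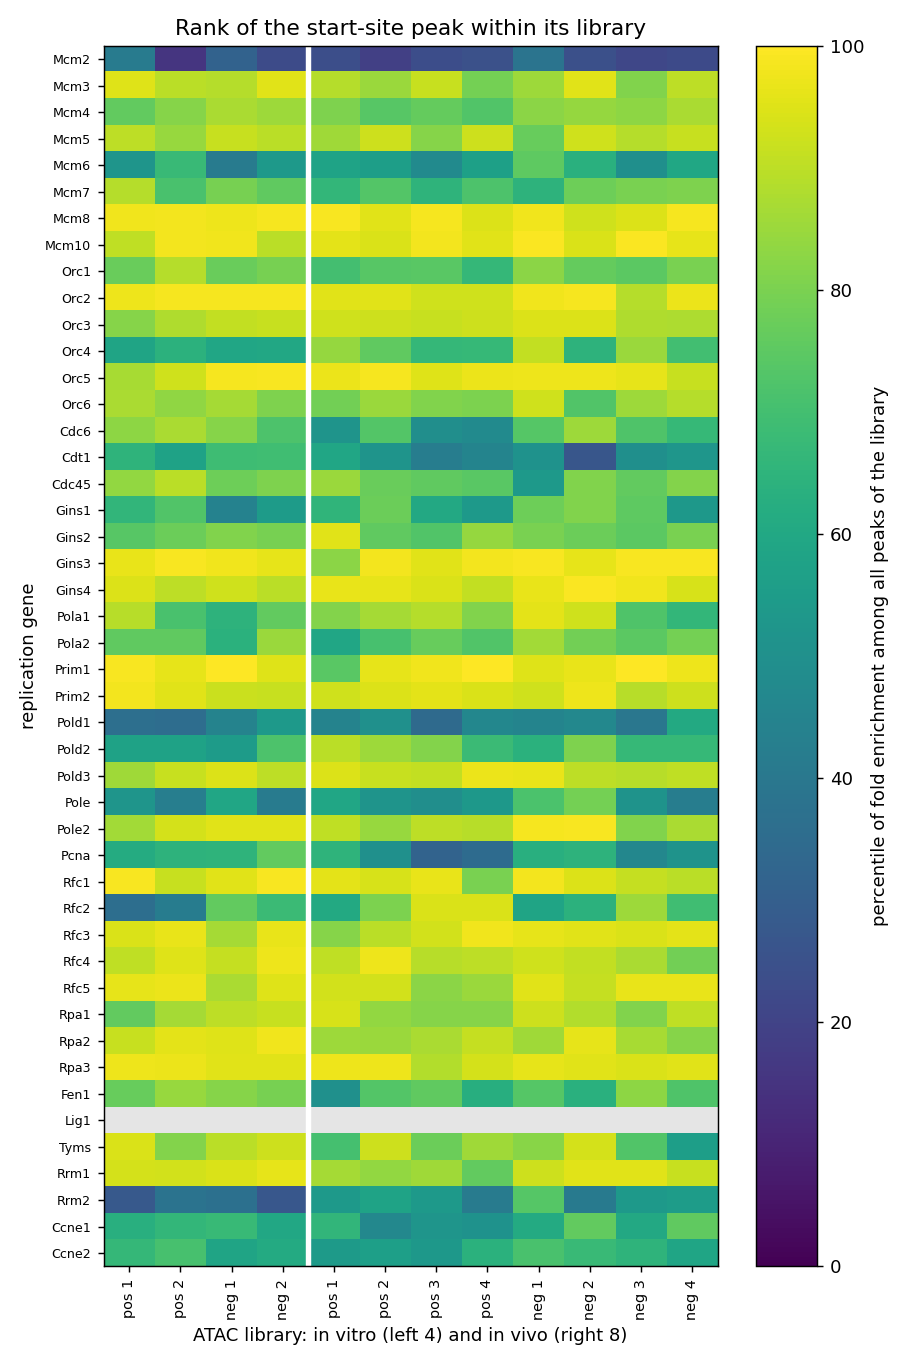
Rank of the start-site peak of each gene (rows) among all peaks of its library (columns, in vitro on the left and in vivo on the right, positive before negative), as the percentile of fold enrichment in colour; grey means no start-site peak. Mcm2 is low and Mcm8, Orc2 and Prim1 are high in libraries of both populations, and Lig1 is grey.

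Away from the start sites, a few peaks were seen in 1 population only. Peaks of an experiment were merged where they overlapped and assigned to genes by overlap with the gene body or 2 kb upstream. In vitro, 8 of the 46 genes (17.4%) had a region found in both positive and neither negative library, close to the 15.8% of all genes with a region. These were Prim2 (4 regions), Gins1 (2 regions), Rpa1, Cdc6, Pole2, Orc5, Pole and Mcm5, 12 regions in all, with centres 5675 to 118070 bp from the start. The Cdc6 region (chr11:98917720-98918552 on mm10) lay 10247 bp from the start and the Pole2 region (chr12:69215914-69216888) 11789 bp, both inside the gene. A region of both negative and neither positive library was found in 1 gene, Rpa2 (chr4:132774738-132775430, 6724 bp from the start), against 7.92% of all genes. Of the 8 genes with a positive-only region 5, and Rpa2 itself, were among those with higher RNA in positive cells, a status shared by 60.9% of the 46 genes. Leaving out a library loosens this rule, because 1 library fewer must hold or lack the region. The share over all genes was not counted in those settings. Without positive replicate 2, positive-only regions were found in 16 genes, and without negative replicate 2, negative-only regions in 8. Without positive replicate 1 or without negative replicate 1, negative-only regions were found in 3 genes each.

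In cells recovered from tumours, no region of the 46 genes was found in all 4 libraries of one population and in none of the other. Over all genes with a region, 1.71% had such a positive-only region and 2.39% a negative-only one. Leaving out single libraries, which loosens the rule, gave at most 2 genes with a positive-only region (without positive replicate 1) and 1 with a negative-only region (without negative replicate 4).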

How the data were processed

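The 46 genes and the neighbouring lists were chosen with earlier results of these data known. The RNA values were estimated counts per gene, deposited by the authors without scaling, and 22.5% to 23.8% of them were not whole. The submitters' processing notes name STAR, DESeq2 and Partek for RNA, and MACS2, BWA, cutadapt and Partek for ATAC, with mm10 as the build. Counting method, strand and versions are not given in the sources used here. The ATAC lists deposited by the authors give, per the file headers, peak positions, lengths, pileup signal, fold enrichment (a ratio over the local background) and −log10 of the p-value and q-value, which served here for ranking and thresholds inside a library's own list.

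Counts were rounded, filtered with filterByExpr, scaled by TMM and tested with edgeR 4.0.16 (glmQLFit, glmQLFTest) in R 4.3.3, with Benjamini-Hochberg adjustment over 12022 genes at 0.05. The scripts were tested on simulated data. DESeq2 1.42.0, other scalings, no filter on low counts, a replicate block, leaving out Rn45s and leaving out each library were alternatives. For ATAC, they were a −log10 q of at least 5, an overlap of at least 150 bp, a window of 1 kb, merging at 100 bp and leaving out each library. Read depth per ATAC library is unknown, so peak counts stand for it. Gene positions are those of the count table on mm10, and promoter sequences are from RefSeq on GRCm38.p6.

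Values per library are printed for the 2 called genes with the largest absolute log2 fold change in each role, for the highest and lowest of the 46, and for up to 3 called genes of each list, some of which are not reported here. Values of Mcm4, Cdt1, Ccne1 and Rrm2 were added after the values were seen, as were those of the genes in the closing section. Sorted groups were taken from the cell population in the labels. Each RNA group has 2 libraries, so a permutation test of 1 gene could not go below p = 0.333.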

Additional observations from a re-analysis of the deposited data

Results flagged for a closer look

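Among 22 sets of 4 in vivo libraries examined for a library far from the other 3 (Dixon's test), 5 stood out. The sets share libraries and are not independent, so this count cannot be set against the rate given by chance. A set of equal values also cannot stand out, and 45 listed genes had a start-site peak in every in vivo library. Positive replicate 1 had 27406 peaks, the fewest of the positive in vivo libraries. The same library had 10743 genes with a start-site peak, again the fewest. Its start-site peak of Prim1, which encodes the catalytic primase subunit, ranked at the 74.4 percentile, below the other 3 positive libraries. Among the negative in vivo libraries, the start-site peak of Mcm2 ranked at the 38.6 percentile in replicate 1, above the other 3. The start-site peak of Orc2 ranked at the 89.1 percentile in negative replicate 3, below the other 3. The cause of these differences was not tested.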

How the results depend on the processing

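The 28 replication genes called higher were 28 with DESeq2 size factors, 39 with library size alone, 29 without a filter on low counts, 28 without Rn45s, 16 with DESeq2 and 13 to 28 when 1 library was left out. DESeq2 called 1688 of all genes where edgeR called 3000, and leaving out 1 library gave 1722 to 3451. The replicate block gave 32 replication genes higher, and 13.9% of all tested genes. Replicate numbers were not treated as pairs, since the labels give no shared source and the deviations of same-numbered libraries correlated at 0.0646 over genes. The number called lower was 0, and 0 to 1 when 1 library was left out. The median log2 fold change was 0.18, with 0.25 for library size alone and 0.18 to 0.20 when 1 library was left out. The log2 fold change of Cdt1 was -0.20 to 0.0753 when 1 library was left out, reversing without negative replicate 1. In vitro, genes with a negative-only region numbered 1, with 2 at a −log10 q of at least 5 and 1 to 8 when 1 library was left out, and genes with a positive-only region numbered 8, with 8 to 16. In vivo the positive-only count was 0, with 0 to 2, and the negative-only count 0, with 0 to 1. For these regions, leaving out a library also loosens the rule itself. The causes were not tested.

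With 2 libraries per group, calls of the smaller differences depend on each library. Overlapping genes, unknown strand and shared reads limit single genes, and ATAC peak lists give no read depth.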

Other observations

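Among the deoxynucleotide and thymidylate genes, 2 for cytosolic folate enzymes were higher and 2 for mitochondrial ones lower in positive cells. These 4 genes and those of the next paragraph were chosen after their values were seen, and the difference between the compartments was not tested. Shmt1, the cytosolic serine hydroxymethyltransferase that feeds thymidylate synthesis, stood at 76.8 and 74.8 CPM in positive libraries, against 65.9 and 59.4 CPM in negative libraries (log2 fold change 0.27, edgeR adjusted p = 0.0055), a call lost without positive replicate 1 (adjusted p = 0.0521). Mthfd1, the cytosolic folate enzyme, stood at 173 and 179.8 CPM in positive libraries, against 143 and 144 CPM in negative libraries (log2 fold change 0.30, edgeR adjusted p = 0.000194). Their mitochondrial counterparts fell. Shmt2 stood at 344 and 348 CPM in positive libraries, against 435 and 386 CPM in negative libraries (log2 fold change -0.25, edgeR adjusted p = 0.0017). Mthfd2 stood at 159 and 164.9 CPM in positive libraries, against 210.3 and 195 CPM in negative libraries (log2 fold change -0.32, edgeR adjusted p = 0.000145). The calls of Mthfd1, Shmt2 and Mthfd2 were kept in all 10 alternative settings.

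Beside Cdkn1b, the 3 other CDK inhibitor genes on the G1/S list were lower in positive cells. Cdkn2d stood at 70.8 and 70.3 CPM in positive libraries, against 80.4 and 91.9 CPM in negative libraries (log2 fold change -0.29, edgeR adjusted p = 0.00422). Cdkn2c (log2 fold change -0.22, adjusted p = 0.0244) and Cdkn1a, the p53 target p21 (log2 fold change -0.13, adjusted p = 0.0441), also fell, and each of these calls was kept in 5 of the 10 alternative settings. Of the cyclin and kinase genes of the same step, Ccnd2 and Cdk2 rose by log2 0.24 each, while Cdk6 and Ccnd3 had log2 fold changes of -0.17 and -0.12. The Ccnd3 call was kept in 4 of the 10 settings.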
